A study of Homo sapiens with 6 samples.

Results

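The mitochondrially encoded genes are the 37 of the 58884 listed genes whose symbol begins with MT-. Membership rests on that symbol alone, but the set was chosen with earlier results of these data known. The 37 comprise 13 protein-coding genes, 2 rRNA genes and 22 tRNA genes. The RNA-seq data come from 6 libraries, 3 from cells given a negative control siRNA (NC) and 3 from cells given an siRNA against CIRBP (SiCIRBP), the cold-inducible RNA-binding protein. The cells are an immortalized human cardiomyocyte line that the library labels call T0519, while the study's text names AC16 for its transcriptome comparison. No drug is named for these libraries. The dose of the siRNA and the time of harvest are not given in the sources used here, and nothing says that the 3 libraries of a group came from separate cultures. The p-values below therefore measure the spread between these libraries, which may be technical.

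The human mitochondrial chromosome is a small circle that is transcribed from both of its strands into long precursors. These are cut into rRNAs, tRNAs and mRNAs, in large part at the tRNAs that lie between the other genes, so the members start from shared precursors and can come to differ in level through processing and decay. The mRNAs encode core subunits of respiratory complexes I, III and IV and of the ATP synthase, complex V, which a working heart muscle cell needs in large amounts, and all other proteins of mitochondrial gene expression come from nuclear genes. In GENCODE 29, 28 members are read from the plus strand of chrM (GRCh38), the direction of the heavy-strand precursor, and 9 from the minus strand, namely MT-ND6 and 8 tRNA genes.

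The libraries held 25726259 to 29919566 estimated counts. The targeted gene CIRBP, on the counts-per-million scale with TMM library factors (CPM, used for the level of each gene below), was at 86.3, 85.7 and 90.9 in NC_1, NC_2 and NC_3 and at 54.7, 24.3 and 46.2 in SiCIRBP_1, SiCIRBP_2 and SiCIRBP_3. All SiCIRBP values lay below all NC values, and the knockdown was partial. The study tested 4 libraries and left out NC_1 and SiCIRBP_2, and both that set and all 6 libraries were fitted here. It left these out as the most discrepant by correlation and principal component analysis of these same data. The p-values over the 4 libraries thus measure a spread from which the most discrepant library of each group had been removed. Over the 4 libraries the log2 fold change of CIRBP was -0.81 ± 0.11 (SE; edgeR quasi-likelihood test, adjusted p = 0.00828), and over all 6 it was -1.07 ± 0.26 (adjusted p = 0.103). SiCIRBP_2 stood apart, with correlations of 0.960 to 0.975 to the other libraries. Of 12 cardiomyocyte markers only NKX2-5 reached a median of 1 TPM (transcripts-per-million, a scale per length), and MYH6, MYL2, PLN and RYR2 were at 0 in every library, whereas 6 of 7 fibroblast markers reached it.

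Mitochondrially encoded RNA took 2.78%, 2.88% and 2.95% of all counts in NC_1, NC_2 and NC_3, and 3.08%, 2.18% and 3.33% in SiCIRBP_1, SiCIRBP_2 and SiCIRBP_3. SiCIRBP_1 and SiCIRBP_3 lay above every NC library and SiCIRBP_2 below every one, so the groups overlapped. The means were 2.87% ± 0.0845 (SD, n = 3) for NC and 2.86% ± 0.605 (SD, n = 3) for SiCIRBP, a difference of -0.00291 percentage points that did not pass an exact two-sided permutation test (p = 1.0, smallest possible 0.1). Without SiCIRBP_2 the SiCIRBP mean was 0.339 percentage points higher and the groups did not overlap (exact permutation p = 0.2, the smallest possible there). Counting error is small beside these gaps, with Wilson 95% intervals of at most ± 0.0066 percentage points, which cover counting error only. In bulk libraries, less RNA per cell and fewer cells of a type cannot be told apart.

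**Figure D1:**
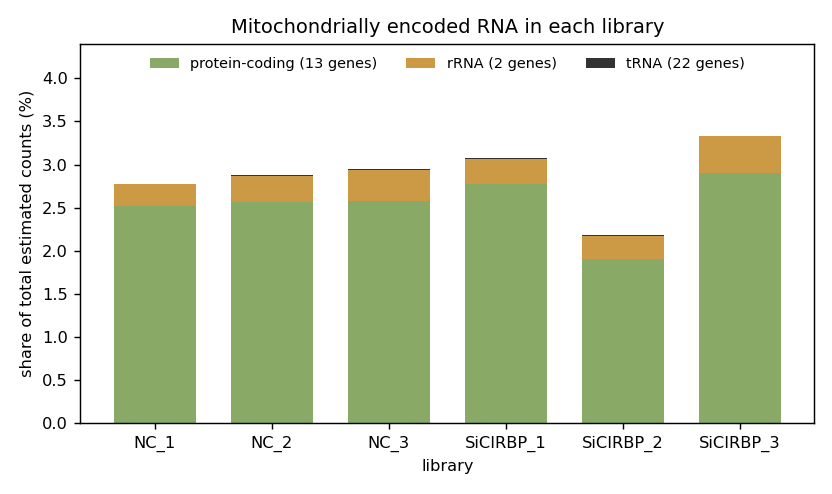
Share of all estimated counts (%, vertical axis) assigned to mitochondrially encoded genes in each of the 6 libraries, stacked by class. The bars reach 2.78% to 2.95% in NC and 3.08%, 2.18% and 3.33% in SiCIRBP, and tRNA, at 0.0124% or less, shows at most as a hairline.

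The protein-coding members followed the total, with 2.52%, 2.56% and 2.58% of all counts in NC and 2.78%, 1.90% and 2.90% in SiCIRBP. SiCIRBP_2 was again the lowest library and SiCIRBP_3 the highest. Sums over other gene lists in SiCIRBP_2 were set beside this share. The summed level of 23 nuclear RNAs that lack a poly(A) tail was 186 CPM (by library totals, without TMM factors) in SiCIRBP_2 and 52.8 to 99.0 in the other libraries. In TPM that list did not set SiCIRBP_2 apart, at 1012 TPM against 1240.4 TPM in NC_1 and 638 to 817 TPM in the others. The summed level of the 7 fibroblast markers was 420 TPM in SiCIRBP_2 against 715 to 1309 TPM. Most of it was COL1A1, at 320 TPM in SiCIRBP_2 and 584 to 1158 TPM elsewhere. COL3A1, PDGFRA and PDGFRB were also lowest in SiCIRBP_2, whereas DCN was not, and LUM was at 0 in every library. COL1A2 was higher there, at 51.7 TPM, than in NC, at 25.3 to 29.7 TPM. The part of either in the mitochondrial share was not tested.

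At least 10 counts in every library were found for 16 members, all 13 protein-coding genes, both rRNA genes and 1 tRNA gene, MT-TP. The same 16 passed the expression filter of both fits, and none of them passed through 1 group only. Over the 4 libraries of the study, 7 of the 16 were called higher in SiCIRBP at an adjusted p under 0.05 (edgeR), which is 43.8% of the members tested, against 9.62% of all 15421 genes tested. They were MT-CYB, MT-ND2, MT-ATP8, MT-ND1, MT-CO3, MT-ND3 and MT-ATP6, with log2 fold changes from 0.51 to 0.79. MT-TP was called lower, where 9.76% of all genes were, and 8 members were not called. At an unadjusted p under 0.05 the counts were 9 higher and 2 lower, against 18.2% and 18.5% of all genes. No member was called at 2-fold or more, as 1.82% of all genes were upward and 1.8% downward. The median log2 fold change was 0.30 over the 16 members and 0.00 over all genes tested. The members are not independent observations, since most are cut from 1 precursor.

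Over all 6 libraries no member was called by edgeR, as was no gene at all of 15217 tested, where 0.0% were called higher and the smallest adjusted p was 0.0853. At an unadjusted p under 0.05, 3 of the 16 members were higher (MT-ND1, MT-ND2 and MT-CYB) and 0 lower, where 12.1% and 11.6% of all genes were, 3603 genes in all. DESeq2 called 1 member over the 6 libraries, MT-ND1. The median log2 fold change of the members was 0.21 over the 6 libraries, and it was 0.01 over all genes. Leaving out 1 of the 4 libraries leaves 1 library in a group, so only effect sizes are given. The median log2 fold change of the members was then 0.23 without NC_2, 0.38 without NC_3, 0.46 without SiCIRBP_1 and 0.17 without SiCIRBP_3. Over all genes tested it lay between -0.0143 and 0.0076 in these fits.

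NC_1, which the study did not test, lay on the SiCIRBP side of NC_2 and NC_3 in many members. In each of the 7 members called higher, NC_1 lay above NC_2 and NC_3, and SiCIRBP_1 and SiCIRBP_3 lay above all 3 NC libraries. These 7 were called without NC_1, and of all 1484 genes so called 89.2% had NC_1 above NC_2 and NC_3, so the place of NC_1 was not particular to the members. In the 4 members with a log2 fold change below 0 over the 4 libraries, NC_1 lay below NC_2 and NC_3, as it did in 5102 of all 7736 genes with such a value. SiCIRBP_2 was below SiCIRBP_1 and SiCIRBP_3 in 13 of the 16 members and below every NC library in 9, all of them protein-coding. The share of all genes with SiCIRBP_2 in these places was not counted, so its place is not shown to be particular to the members.

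**Figure D2:**
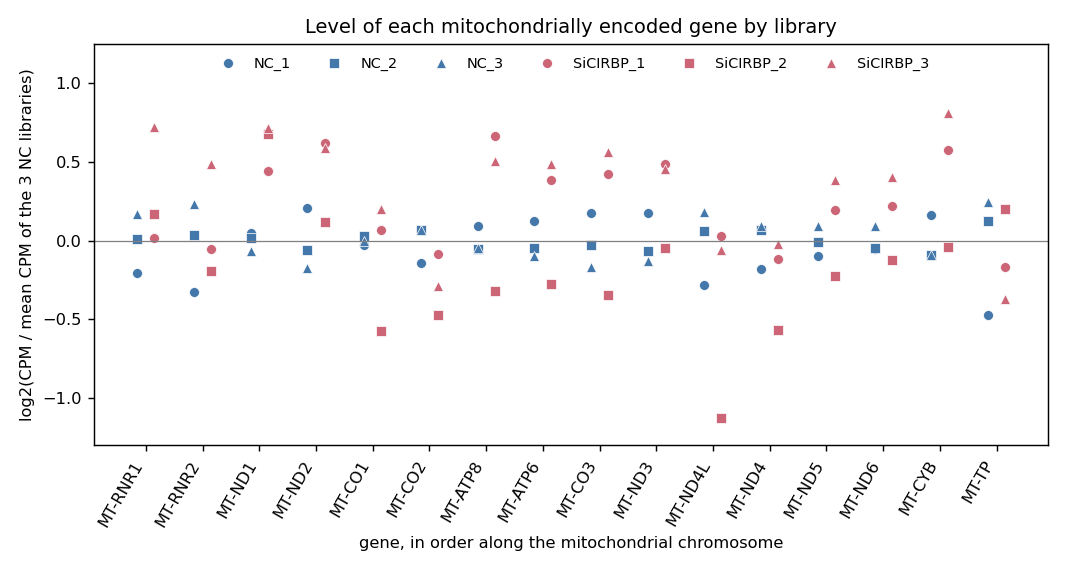
Level of each of the 16 members in each library, as log2 of its CPM over the mean CPM of the 3 NC libraries (vertical axis), in order along the chromosome. MT-ND1 is the member whose 3 SiCIRBP points all lie above its NC points, and SiCIRBP_2 falls lowest at MT-ND4L, at 45.8% of the NC mean.

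Per kilobase of listed length, the highest levels were those of the complex IV genes MT-CO2 and MT-CO1, with medians over the 6 libraries of 5883 and 5716 CPM per kilobase (by library totals, without TMM factors). MT-CO2 was the higher in 5 of 6 libraries. Their ranges overlapped, at 4452 to 6746 for MT-CO2 and 3663 to 6344 for MT-CO1, and both lay above that of MT-ND4, the next at a median of 2546 with a range of 1777 to 2933. Below it came MT-CO3 (median 2214), MT-ND2 (2110) and MT-RNR2 (1646), with overlapping ranges. Compared within libraries, MT-ND4 lay above MT-RNR2 in 6 of 6, whereas MT-ND4 lay above MT-CO3 in 4, MT-CO3 above MT-ND2 in 4 and MT-ND2 above MT-RNR2 in 5. The lowest medians were those of MT-RNR1 at 468 and MT-ATP8 at 450, with MT-RNR1 the higher in 4 of 6 libraries. The rRNAs were thus not the most abundant members per length in these libraries. The order depends on the length used. By median TPM, which uses an assigned length, MT-ATP8 ranked 1, MT-CO2 ranked 2 and MT-CO1 ranked 4. MT-RNR2 and MT-RNR1 ranked 10 and 15 there.

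The 22 tRNA genes were nearly empty, with the exception of MT-TP. Of the others, 16 had 0 counts in every library, which allows up to 3 counts, or at most 0.117 CPM by library totals, and MT-TA, MT-TC, MT-TE, MT-TN and MT-TS1 had at most 8 counts in any library. MT-TP, the tRNA gene for proline, is read from the minus strand at chrM:15956-16023 and is the only tRNA gene with enough counts to compare. Its 68 listed bases are printed here from GENCODE 29 (GRCh38), with the anticodon in capitals.
MT-TP: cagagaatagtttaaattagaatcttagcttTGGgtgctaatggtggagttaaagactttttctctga

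MT-TP was at 73.8, 112 and 121 CPM in NC_1, NC_2 and NC_3 and at 91.0, 118 and 79.1 CPM in SiCIRBP_1, SiCIRBP_2 and SiCIRBP_3. The groups overlapped, with NC_1 lowest of all. Over the 4 libraries it was lower, with a log2 fold change of -0.45 ± 0.10 (SE; edgeR, adjusted p = 0.0278), and over all 6 the value was -0.09 ± 0.22 (adjusted p = 0.809). Counts per unit of TPM were 0.948 of those of MT-RNR1, a gene of 954 bases. The length assigned to MT-TP was therefore longer than its listed 68 bases. Its counts can include reads from outside the printed bases, and they are not shown to be a level of the mature tRNA.

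The 2 rRNA genes encode the RNAs of the small and large subunits of the mitochondrial ribosome. MT-RNR1 (chrM:648-1601) was at 367, 428 and 477 CPM in NC and at 429, 476 and 700.0 CPM in SiCIRBP. MT-RNR2 (chrM:1671-3229) was at 2059, 2647 and 3034 CPM in NC and at 2491, 2258 and 3622 CPM in SiCIRBP. In both genes NC_1 was the lowest library and SiCIRBP_3 the highest, with the remaining libraries intermixed. The log2 fold changes over the 4 libraries were 0.32 ± 0.21 for MT-RNR1 and 0.11 ± 0.17 for MT-RNR2 (edgeR, adjusted p = 0.314 and 0.696). Mature mitochondrial rRNA carries at most a short tail, and whether the libraries were selected for poly(A) is not given in the sources used here.

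The balance between the rRNA genes and the protein-coding genes was tested within libraries, where it does not depend on scaling. The log2 ratio of summed rRNA to summed mRNA counts was -3.35, -3.05 and -2.85 in NC and -3.26, -2.84 and -2.77 in SiCIRBP. It varied as much within a group as between them, with a difference in means of 0.13 (exact permutation p = 0.5). The log2 ratio of MT-RNR1 to MT-RNR2 differed by 0.21 (exact permutation p = 0.2), with SiCIRBP_2 and SiCIRBP_3 above the other 4 libraries. Adjusted over the 5 ratios tested, every p was 0.75 or 0.80.

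Complex I, the NADH dehydrogenase that passes electrons to ubiquinone, has 7 subunits encoded here, of which 3 were called higher over the 4 libraries. MT-ND1 (chrM:3307-4262) was at 697, 682 and 644 CPM in NC and at 914, 1081 and 1108 CPM in SiCIRBP. It was the only member of the 16 whose SiCIRBP libraries all lay above the NC libraries, where 16.2% of all genes did so, and none lay wholly below, where 16.6% did. Its log2 fold change was 0.61 ± 0.11 over the 4 libraries (edgeR, adjusted p = 0.0153) and 0.62 ± 0.12 over all 6 (edgeR, adjusted p = 0.0869; DESeq2, adjusted p = 0.00117). MT-ND1 was also the member in which SiCIRBP_2 stood highest against NC, at 160% of the NC mean.

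MT-ND2 (chrM:4470-5511) was at 2268, 1885 and 1746 CPM in NC and at 3022, 2132 and 2961 CPM in SiCIRBP. SiCIRBP_2 lay below NC_1, which made the groups overlap. The log2 fold change was 0.72 ± 0.08 over the 4 libraries (edgeR, adjusted p = 0.00594) and 0.46 ± 0.17 over all 6 (adjusted p = 0.161). MT-ND3 (chrM:10059-10404) was at 352, 298 and 286 CPM in NC and at 438, 302 and 427 CPM in SiCIRBP, with a log2 fold change of 0.57 ± 0.07 over the 4 libraries (edgeR, adjusted p = 0.00789) and 0.32 ± 0.17 over all 6 (adjusted p = 0.280). SiCIRBP_2 fell among the NC libraries.

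MT-ND4L and MT-ND4 lie on 1 mRNA and share 7 bases, so reads over the junction can belong to either. The end of MT-ND4L and the start of MT-ND4 are printed from GENCODE 29 (GRCh38, plus strand) because the fitted changes of the pair are compared next, and the shared bases are in capitals.
MT-ND4L, chrM:10707-10766: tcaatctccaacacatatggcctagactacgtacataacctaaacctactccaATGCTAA
MT-ND4, chrM:10760-10819: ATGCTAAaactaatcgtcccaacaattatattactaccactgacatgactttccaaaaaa

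MT-ND4L was at 306, 388 and 422 CPM in NC and at 380, 170.4 and 358 CPM in SiCIRBP. MT-ND4 was at 3275, 3901 and 3963 CPM in NC and at 3421, 2511 and 3661 CPM in SiCIRBP. In both genes SiCIRBP_1 and SiCIRBP_3 lay within the NC range and SiCIRBP_2 below it. Neither was called, at log2 fold changes over the 4 libraries of -0.13 ± 0.08 and -0.15 ± 0.08 (edgeR, adjusted p = 0.278 and 0.224). The log2 ratio of MT-ND4L to MT-ND4 was -3.88 in SiCIRBP_2 and between -3.42 and -3.17 in the other 5 libraries, and the difference between the groups, -0.14, did not pass the test (exact permutation p = 0.8).

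MT-ND5 and MT-ND6 lie end to end on opposite strands. MT-ND5 (chrM:12337-14148) was at 1268, 1349 and 1445 CPM in NC and at 1553, 1161 and 1771 CPM in SiCIRBP. MT-ND6 (chrM:14149-14673), the only mRNA read from the minus strand, was at 684, 689 and 759 CPM in NC and at 829, 652 and 940.2 CPM in SiCIRBP. Both had SiCIRBP_2 as the lowest library and SiCIRBP_3 as the highest. Their log2 fold changes over the 4 libraries, 0.25 ± 0.09 and 0.29 ± 0.10, were not called (edgeR, adjusted p = 0.103 and 0.0754). The log2 ratio of MT-ND6 to MT-ND5 lay between -0.97 and -0.83 in all 6 libraries and differed by 0.05 between the groups (exact permutation p = 0.3). Whether the counting used the strand is not given in the sources used here, and without it antisense RNA of the opposite precursor cannot be told apart from the genes' own RNA.

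Complex III, which passes electrons from ubiquinol to cytochrome c, has the single member MT-CYB (cytochrome b, chrM:14747-15887). It was at 682, 570 and 572 CPM in NC and at 907, 592 and 1067 CPM in SiCIRBP. SiCIRBP_1 and SiCIRBP_3 lay above all NC libraries and SiCIRBP_2 within them. MT-CYB had the largest fold change of the 16 members over the 4 libraries, at a log2 of 0.79 ± 0.10 (edgeR, adjusted p = 0.00688), and 0.49 ± 0.21 over all 6 (adjusted p = 0.203).

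Complex IV, cytochrome c oxidase, which reduces oxygen, has 3 members, of which only MT-CO3 was called. MT-CO1 (chrM:5904-7445), the catalytic subunit, was at 8458, 8820.5 and 8621 CPM in NC and at 9034, 5792 and 9910 CPM in SiCIRBP. MT-CO2 (chrM:7586-8269), which takes electrons from cytochrome c, was at 3914, 4527 and 4524 CPM in NC and at 4070, 3122 and 3543 CPM in SiCIRBP. MT-CO3 (chrM:9207-9990) was at 1834, 1596 and 1449 CPM in NC and at 2181, 1279 and 2399 CPM in SiCIRBP. SiCIRBP_2 was the lowest library in all 3, at 67.1%, 72.2% and 78.7% of the NC mean, while SiCIRBP_1 and SiCIRBP_3 were above every NC library in MT-CO1 and MT-CO3 and not in MT-CO2.

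The log2 fold changes of the complex IV genes over the 4 libraries were 0.12 ± 0.09 for MT-CO1, -0.25 ± 0.09 for MT-CO2 and 0.59 ± 0.09 for MT-CO3 (edgeR, adjusted p = 0.359, 0.105 and 0.0114). Over all 6 libraries they were -0.07 ± 0.19, -0.27 ± 0.13 and 0.26 ± 0.23 (adjusted p = 0.846, 0.241 and 0.485). The value of MT-CO1 thus changed sign with the libraries used and passed the test in neither set.

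Complex V, the ATP synthase, has the members MT-ATP8 and MT-ATP6, subunits of its membrane part, which were both called higher over the 4 libraries. The genes lie on 1 mRNA and share 46 bases. Both ends are printed from GENCODE 29 (GRCh38, plus strand) with the shared bases in capitals, because a read inside them fits either gene and the pair of calls is not independent.
MT-ATP8, chrM:8473-8572: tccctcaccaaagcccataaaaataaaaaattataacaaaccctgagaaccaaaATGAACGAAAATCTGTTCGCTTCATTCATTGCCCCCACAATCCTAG
MT-ATP6, chrM:8527-8626: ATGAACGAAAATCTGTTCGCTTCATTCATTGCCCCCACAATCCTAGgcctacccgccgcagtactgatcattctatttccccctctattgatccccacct

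MT-ATP8 was at 95.7, 86.5 and 86.7 CPM in NC and at 142, 71.8 and 127 CPM in SiCIRBP. MT-ATP6 was at 861, 764 and 738 CPM in NC and at 1031, 651 and 1107 CPM in SiCIRBP. In both genes SiCIRBP_1 and SiCIRBP_3 were the highest libraries, NC_1 came next and SiCIRBP_2 was the lowest. The log2 fold changes over the 4 libraries were 0.64 ± 0.09 and 0.51 ± 0.08 (edgeR, adjusted p = 0.00919 and 0.0114), and over all 6 they were 0.34 ± 0.23 and 0.24 ± 0.20 (adjusted p = 0.384 and 0.468). The log2 ratio of MT-ATP8 to MT-ATP6 lay between -3.18 and -2.86 in all libraries, with a difference between the groups of 0.08 (exact permutation p = 0.7).

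**Figure D3:**
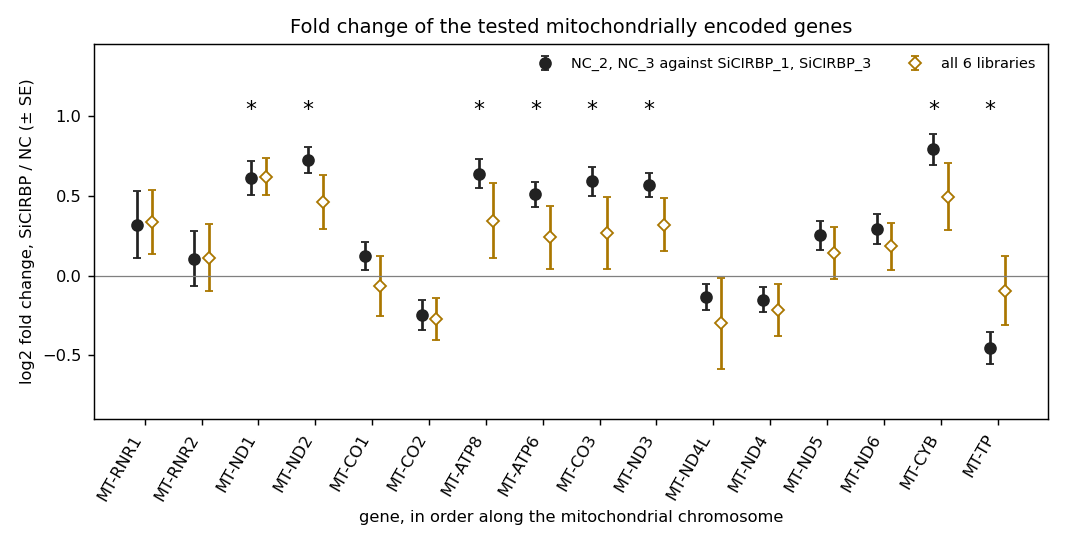
Log2 fold change of SiCIRBP over NC (vertical axis, bars ± SE) of the 16 tested members, from edgeR over the 4 libraries of the study (filled circles) and over all 6 (open diamonds), in order along the chromosome. Asterisks mark the 7 members called higher and MT-TP, called lower, over the 4 libraries. The called members other than MT-ND1 (0.61 and 0.62) lie nearer to 0 over the 6 libraries, where none is called.

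The GC content of the 7 members called higher overlapped that of the others. It ranged from 39.6% to 47.7% (median 44.2%), against 42.7% to 46.2% (median 44.6%) in the 8 protein-coding and rRNA members that were not called. The called members ran from 207 to 1141 bases and the others from 297 to 1812. The called members had median levels of 91.2 to 2200 CPM, and the most abundant protein-coding members, MT-CO1, MT-CO2 and MT-ND4, were not among them.

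Expressed as shares of the summed MT- counts, a scale on which the total of a library plays no part, the groups separated in both directions. Complex I genes took 32.5%, 32.0% and 32.1% of these counts in NC and 34.1%, 35.8% and 33.2% in SiCIRBP. Complex IV genes took 52.2%, 52.0% and 50.5% in NC and 49.4%, 45.6% and 46.9% in SiCIRBP. All 3 SiCIRBP libraries, SiCIRBP_2 included, lay above NC for complex I and below NC for complex IV. The differences in means were 2.19 and -4.28 percentage points, each at the smallest p the exact permutation test allows (p = 0.1). The members of a complex did not move alike. In complex I the difference was 2.38 percentage points for MT-ND2 and 1.30 for MT-ND1, but -2.07 for MT-ND4. For MT-ND4L, whose groups overlapped, the difference was -0.296. In complex IV it was -2.40 for MT-CO1 and -2.73 for MT-CO2, but 0.853 for MT-CO3, whose groups overlapped. These shares were computed after the levels had been seen. In TPM in place of counts, the difference was 0.487 percentage points for complex I (exact permutation p = 0.4) and -3.01 for complex IV (exact permutation p = 0.1).

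By single member, the SiCIRBP libraries all lay above the NC libraries in 5 of the 16 shares and all below in 3. The 5 were MT-ND1, MT-ND2, MT-ND5, MT-ND6 and MT-CYB, and the 3 were MT-CO1, MT-CO2 and MT-ND4. Of all genes set against the summed MT- counts, 6.3% lay wholly above and 16.9% wholly below. That is not a like measure, since the members make up this sum and other genes do not. In CPM, measured alike, 1 of the 16 members lay wholly above and 0 below, against 16.2% and 16.6% of all genes. MT-ND2 took 8.34%, 6.56% and 6.04% in NC and 9.77%, 9.53% and 8.77% in SiCIRBP. MT-ND4 took 12.04%, 13.6% and 13.7% in NC and 11.1%, 11.2% and 10.8% in SiCIRBP. MT-CO1 took 31.1%, 30.7% and 29.8% in NC and 29.2%, 25.9% and 29.3% in SiCIRBP. Each had an exact permutation p of 0.1, the smallest possible, and 0.2 after adjustment over the 16 members. Shares of 1 sum are tied to each other, so a higher share of some members requires a lower share of others.

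Nuclear copies of mitochondrial sequence can take reads of the members. Of 407 such genes listed, 4 had more than 10 counts in every library. MTATP6P1 had 13.9% to 15.7% of the counts of MT-ATP6 and holds 61.3% of its 31-base words. MTCO1P12 (62.2% of the words of MT-CO1) had 0.579% to 0.645% of the counts of MT-CO1, and MTND2P28 and MTRNR2L1 had at most 0.175% and 0.904% of those of MT-ND2 and MT-RNR2. With the copies added to their members, the differences in the complex I and complex IV shares were 2.15 and -4.31 percentage points.

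The members depend on nuclear genes for their transcription, processing, stability and translation, and 76 of these in 6 lists were read from the same fits. Over the 4 libraries, 14 of the 76 were called higher (18.4%) and 4 lower, against 9.62% and 9.76% of all genes tested, with a median log2 fold change of 0.05. The calls were 4 higher and 1 lower of 9 transcription genes, 6 and 0 of 16 processing genes, 3 and 3 of 14 stability genes and 1 and 0 of 11 translation factors. None of 9 genes of mtDNA maintenance or of 17 mitochondrial aminoacyl-tRNA synthetases was called. At an unadjusted p under 0.05 (edgeR), 3 genes of each passed, 2 of them higher. Of all genes tested, 18.2% were higher and 18.5% lower at that threshold. Of the 78 mitochondrial ribosomal protein genes, 24 were called higher (30.8%) and 0 lower, against the same 9.62% and 9.76%, with a median log2 fold change of 0.25. Over all 6 libraries edgeR called none of the 154 genes, and DESeq2 called 12 higher. At an unadjusted p under 0.05 in that edgeR fit, 13 of the 76 genes were higher and 3 lower, and 31 of the 78 were higher and 0 lower, where 12.1% and 11.6% of all genes were.

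FASTKD5, needed for the maturation of several mitochondrial mRNAs whose ends are not marked by a tRNA, was at 27.2, 14.4 and 13.6 CPM in NC and at 46.1, 44.2 and 56.4 CPM in SiCIRBP. All SiCIRBP libraries lay above all NC libraries, and NC_1 lay above NC_2 and NC_3. Its log2 fold change was 1.87 ± 0.14 over the 4 libraries (edgeR, adjusted p = 0.00262) and 1.41 ± 0.27 over all 6 (adjusted p = 0.0869). The next genes called higher by p were TRMU, which thiolates mitochondrial tRNAs, at 0.61 and the ribosomal proteins MRPS7, MRPS34 and MRPS17 at 0.61, 0.59 and 0.71.

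The 4 genes called lower over the 4 libraries were SUPV3L1 and PNPT1, the helicase and the nuclease of mitochondrial RNA decay, POLRMT, the mitochondrial RNA polymerase, and LRPPRC, which stabilises mitochondrial mRNAs. Their log2 fold changes were -0.42, -0.35, -0.49 and -0.27 (edgeR, adjusted p = 0.0309, 0.0387, 0.0428 and 0.0459). Over all 6 libraries they were -0.29, 0.32, -0.35 and -0.18 (edgeR, adjusted p = 0.203, 0.614, 0.250 and 0.396), so PNPT1 changed sign. LRPPRC was at 166, 209 and 206 CPM in NC and at 173, 170 and 171 CPM in SiCIRBP, overlapping through NC_1. PNPT1 was at 58.1, 59.1 and 58.8 CPM in NC. In SiCIRBP_1 and SiCIRBP_3 it was at 45.6 and 46.9 CPM, and in SiCIRBP_2 at 127 CPM. POLRMT was at 67.0, 86.3 and 104 CPM in NC and at 73.6, 66.2 and 61.5 CPM in SiCIRBP, overlapping through NC_1. TFAM, which packages mtDNA and starts its transcription, was at 90.3, 85.7 and 74.0 CPM in NC and at 76.9, 117 and 88.1 CPM in SiCIRBP and was not called (log2 fold change 0.05 ± 0.11, edgeR, adjusted p = 0.787).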

How the data were processed

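The authors deposited an estimated count of reads per gene and library, with a listed gene length, and a TPM value, scaled by library and by a length assigned to the gene. Per the labels' processing notes, fastp, HISAT and RSEM were used with hg38, with no versions given. A second table and the fold change and p-value columns hold the authors' own comparisons and were not used. Groups came from the labels.

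Estimated counts were rounded and tested over the whole table with edgeR 4.0.16 (TMM, filterByExpr, quasi-likelihood test) in R 4.3.3, with Benjamini-Hochberg adjustment, over the 4 libraries of the study and over all 6. DESeq2 1.42.0 was an alternative. Single values were compared by exact two-sided permutation in scipy 1.17.1. Positions, sequences and GC content came from GENCODE 29 (GRCh38). A standard error is the absolute log2 fold change over the square root of its F statistic. On simulated data with 200 genes changed by a log2 of 1.5, edgeR recovered 100% over 4 libraries (15163 genes) and over 6 (15037 genes). Of the calls, 2.4% and 4.3% were false. The simulation gave every gene the same low dispersion, changed only well-counted genes and held no outlying library. It checks the code and does not give the power for the smaller changes of the members in these libraries.

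All members were described; a tRNA gene was named with values at 10 counts or more in every library. Of the nuclear lists, up to 5 called genes per direction with the smallest p over the 4 libraries, TFAM, POLRMT and LRPPRC were named. The members and lists were chosen with earlier results of these data known. Shares of the summed MT- counts were added after seeing the data. Alternatives were other size factors, filters and tools, the replicate number as a block, TPM, and leaving out each library.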

Additional observations from a re-analysis of the deposited data

How the results depend on the processing

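With 3 libraries a group, permutation tests could not reach 0.05. Leaving out 1 of the 4 libraries leaves an arm with 1 library that is assumed to vary like the other. Only effect sizes are given for those fits. The 7 members called higher over the 4 libraries became 0 over all 6 and 0 to 11 when a library was left out, and the 1 called lower became 2 with no filter on low counts, 0 over all 6 and 0 to 3. Over all 6 libraries the 0 called higher became 1 with DESeq2, 1 with no filter and 0 to 7 when a library was left out (7 without SiCIRBP_2). Of all genes, 636 of 14186 were called higher with DESeq2, 421 of 28001 with no filter and 554 of 15530 without SiCIRBP_2. The log2 fold change of CIRBP over the 4 libraries was -0.94 to -0.70 with a library left out. Its call over the 4 libraries was lost over all 6 (-1.07). The value over all 6 was -1.07 with DESeq2 and -1.08 with no filter, both passing the test. With a library left out of the 6 it was -1.31 to -0.80, called only without SiCIRBP_2 (adjusted p = 0.0162, edgeR). Of the 154 nuclear genes, 38 called higher over the 4 libraries became 0 over all 6 and 1 to 72 with a library left out, 4 called lower became 0 and 0 to 18, and over all 6 libraries 0 called higher became 12 with DESeq2 and 0 to 4 with a library left out.

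The difference in mitochondrial share was -0.00291 percentage points, 0.294 over the 4 libraries, 0.0752 with TMM-scaled totals and -0.238 to 0.339 with a library left out. The rRNA to mRNA difference was -0.0605 over the 4 libraries and -0.0019 to 0.28 with a library left out. MT-ATP8 to MT-ATP6 was -0.15 in TPM and -0.0158 to 0.14 with a library left out, and MT-ND4L to MT-ND4 was 0.0169 over the 4 libraries and -0.29 to 0.0638 with a library left out. Single members whose sign turned were MT-CO1 (-0.0662 over all 6, and -0.21 to 0.13 there with a library left out), MT-RNR1 (-0.0827 to 0.62 over the 4), MT-RNR2 (-0.19 to 0.34 over the 4, -0.11 to 0.24 over the 6) and MT-TP (-0.28 to 0.0444 over the 6). The causes were not tested.

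The replicate numbers did not pair the libraries (correlations of deviations -0.118, 0.0061 and -0.0264 over 15217 genes). With the replicate number as a block, 0 members were called and the difference in share stayed at -0.00291 percentage points (exact permutation p = 1.0). The block changed no call named here.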

Other observations

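The TPM scale ranked the members differently from the counts per listed length. MT-ATP8 was the highest of the 16 in TPM, at a median of 12394 TPM, and the lowest in counts per kilobase, at a median of 450 CPM per kilobase by library totals. MT-TP was the lowest in TPM, at a median of 184 TPM, and ranked 7 in counts per kilobase of its listed length, which is shorter than the length assigned to it. Counts per unit of TPM, which follow the length assigned in each library, were 0.0134 to 0.0183 of those of MT-RNR1 for MT-ATP8, which is listed at 207 bases against 954. For MT-ND6, listed at 525 bases, they were 1.02 to 1.08 of those of MT-RNR1, and for MT-CO1, listed at 1542 bases, 2.05 to 2.14, above the 1.87 to 1.88 of MT-RNR2, listed at 1559 bases. The lengths assigned to MT-TP, MT-ND6 and MT-CO1 therefore exceeded those their listed lengths give for other members.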
